A study of Mus musculus with 6 samples.

Results

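Potassium channel genes (Kcn) and the hyperpolarisation-activated cation channel genes (Hcn) were examined in the prefrontal cortex of control and Gls1_CamkIIaCre mice. Members were taken by gene symbol, as every Kcn symbol and the Hcn genes among the genes of the deposited table, antisense rows left out, which gave 98 of 21878 genes. Bulk RNA sequencing was done on 3 control libraries and 3 Gls1_CamkIIaCre libraries, each from a separate mouse. Both groups carried the CamKIIα-Cre transgene. Controls were CamKIIαCre;Gls1+/+ littermates (called WT in their genotype label), and the Gls1_CamkIIaCre mice, called mutants here, were CamKIIαCre;Gls1+/flox. The CamKIIα promoter drives Cre in excitatory forebrain neurons, so the floxed allele is removed in such cells, the other allele stays intact, and the series' design text calls the mice mosaic. All cells of the tissue were used without sorting, and the ages of the mice were not used here. In such bulk samples fewer cells of a type and less RNA per cell cannot be told apart.

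Potassium channels let potassium leave the cell, which holds the resting potential, ends action potentials and sets how readily a neuron fires again. The Kcn genes encode voltage-gated pore subunits (Kcna to Kcnd, Kcnh, Kcnq), electrically silent voltage-gated subunits that work only beside other pore subunits (Kcnf, Kcng, Kcns, Kcnv), calcium- and sodium-activated channels (Kcnma1, Kcnn, Kcnt), inward rectifiers (Kcnj), leak channels (Kcnk), and auxiliary proteins without a pore (Kcnab, Kcnip, Kcnmb, Kcne). The HCN channels open on hyperpolarisation, carry sodium and potassium, and shape how pyramidal dendrites sum their inputs.

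Libraries held 17987807 to 19330961 counts, of which 131511 to 142102 fell on Kcn and Hcn genes. Markers of excitatory cortical neurons were abundant in every library, with 11 markers summing to 6248 to 6620 CPM (counts scaled to library size with TMM factors) in the controls and 6368 to 7120 CPM in the mutants. Markers of striatal neurons were present too and differed between groups, at 1211 to 1869 CPM in the controls, highest in control 2, and 612 to 665 CPM in the mutants. Of 19 striatal markers, 17 were called lower.

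Potassium channel transcripts changed in both directions, each by a modest amount. Of 85 members with enough counts to test, 11 were called higher in the mutants and 6 lower, at an edgeR adjusted p under 0.05 over all genes tested, which is 20% of the members. Over all 14440 tested genes, 8.24% were called, 3.95% higher and 4.29% lower. The members' median log2 fold change was 0.02, beside -0.0024 over all genes. Members whose 3 mutants all lay above the 3 controls numbered 15 (17.6%, beside 13.1% of all genes), and those whose mutants all lay below numbered 11 (12.9%, beside 13.6%). The largest called rises were in Kcnh5, Kcnh7, Kcnk9 and Kcng3, and the largest called falls in Kcnab1, Kcnj10 and Kcnip3. DESeq2 called 15 members and limma voom 15, while 31 members had an unadjusted edgeR p under 0.05. The count of called members fell to 8 without Gls1_CamkIIaCre 2 and to 11 without control 2, as did that of all genes, to 415 and 635.

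**Figure D1:**
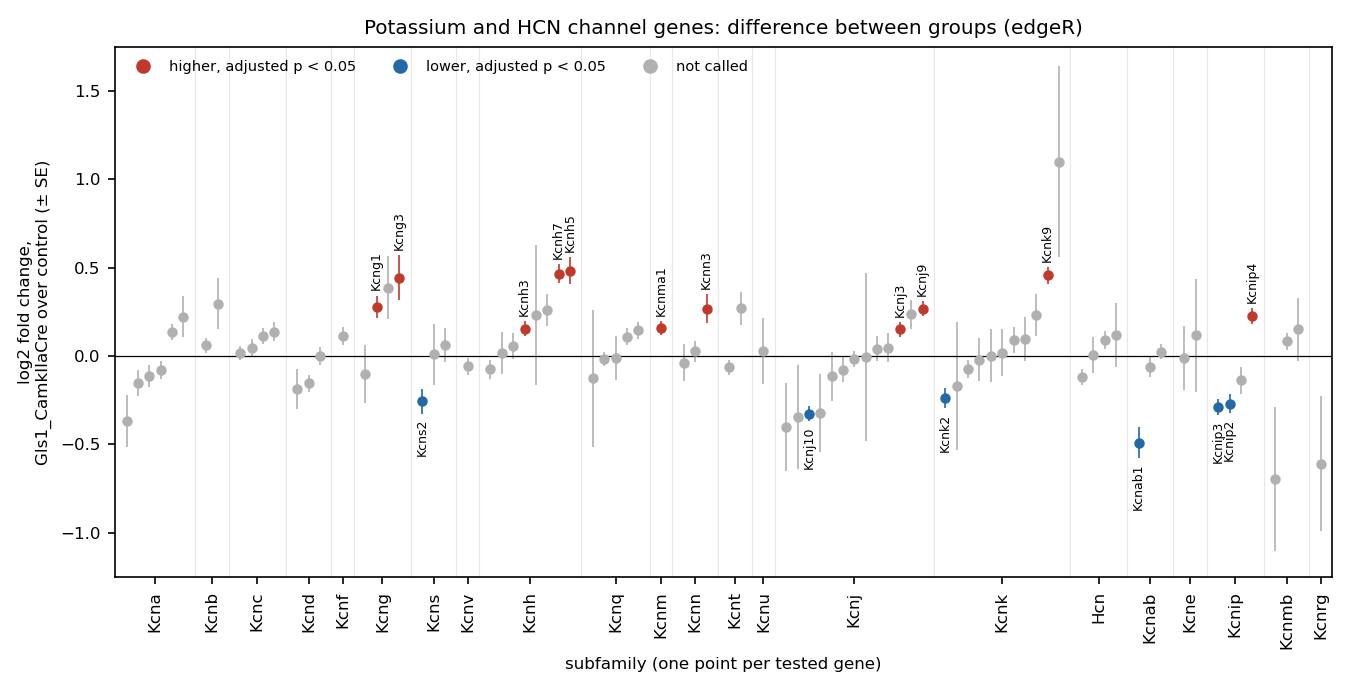
Log2 fold change (Gls1_CamkIIaCre over control, with its SE as bars) of the 85 tested members, 1 point a gene, grouped by subfamily on the x axis; red and blue points passed the edgeR test and grey points did not. Most points lie within the spread around 0, the 11 higher genes are led by Kcnh5, Kcnh7 and Kcnk9, and the 6 lower ones by Kcnab1.

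The remaining 13 members had too few counts to test: Kcna7, Kcna10, Kcne1, Kcne2, Kcne3, Kcnj1, Kcnj15, Kcnk7, Kcnk16, Kcnk18, Kcnmb3, Kcnn4 and Kcnv2. Kcnk16 and Kcnk18 had 0 counts in all 6 libraries, which allows up to 0.155 to 0.167 CPM per library (3 counts, counting error only).

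**Figure D2:**
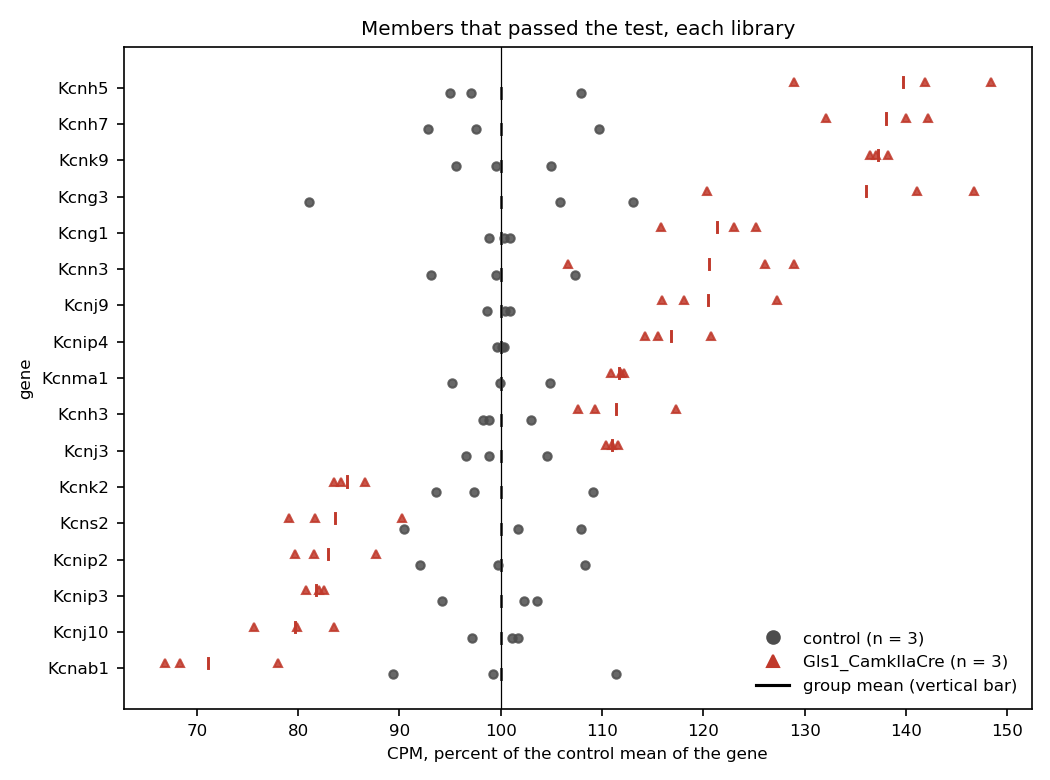
CPM of the 17 called members in each library as percent of the gene's control mean (x axis), with controls as grey circles, mutants as red triangles and group means as vertical bars (n = 3 each). The groups do not overlap for 16 of the 17 genes, and for Kcnn3 the lowest mutant lies below the highest control. The test on these same libraries picked the genes, so their separation is no added support. Over all tested genes, 13.1% had all mutants above all controls and 13.6% all mutants below.

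Between genes, levels were compared per length, from the deposited FPKM (read fragments scaled to gene length and library size). Kcnab2, an auxiliary β subunit of voltage-gated channels, was the most abundant member in the controls at 57.6 ± 1.55 FPKM (SD, n = 3), followed by Hcn2 at 50.7 ± 2.26. Further down, Kcnj10, the glial inward rectifier, stood at 35.5 ± 0.901 FPKM and Kcnf1, a silent subunit, at 34.2 ± 1.38, and the ranges of the latter pair overlapped. Kcnj9 came next at 30.5 ± 0.595 FPKM, ahead of Kcnip2 at 29.6 ± 2.74 and Kcnh3 at 27.8 ± 1.05, with ranges that overlapped from each to the next. At 10 FPKM or more in the controls stood 31 members, of which 5 were called higher and 5 lower. Between 1 and 10 FPKM stood 38, with 5 higher and 1 lower. Among 29 under 1 FPKM, only Kcng3 was called, and the filter had kept 13 of those 29 from the test.

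None of the 15 tested pore subunits of the Kcna, Kcnb, Kcnc and Kcnd subfamilies, which repolarise neurons and set their delay to firing, was called by edgeR. At an unadjusted p under 0.05 stood 3 of 6 Kcna, 0 of 2 Kcnb, 2 of 4 Kcnc and 1 of 3 Kcnd genes, and DESeq2 and limma voom called none of them. Kcna1, a channel of axons and the Kcna gene of highest mean FPKM in the controls, had 250, 288 and 285 CPM in the controls and 246, 238 and 276 CPM in the mutants, which overlap (a log2 fold change of -0.11 ± 0.064 SE, with an edgeR adjusted p of 0.34). Its partner in axons Kcna2, chosen after its values were seen, went the other way, from 369, 396 and 400 to 435, 401 and 447 CPM. The mutants all lay above the controls, with a log2 fold change of 0.14 ± 0.044 (SE) that missed the threshold (edgeR adjusted p = 0.0608). Per length, Kcna2 was below Kcna1 in every control (21.2, 22.5 and 22.7 against 22.8, 26.2 and 25.8 FPKM) and above it in every mutant (24.9, 22.9 and 25.2 against 22.4, 21.5 and 24.7 FPKM). Kcnd2, the main A-type pore subunit of pyramidal dendrites, had 136, 139 and 131 CPM against 125, 127 and 112 CPM (-0.16 ± 0.049 SE, edgeR adjusted p = 0.0526), and the mutants all lay below the controls. Kcnc1, which serves fast-spiking neurons, averaged 199 ± 6.62 against 201 ± 2.63 CPM (SD, n = 3 per group) and did not pass (edgeR adjusted p = 0.839). Without control 3, both Kcna2 (0.0449) and Kcnd2 (0.0463) passed. Both also passed with no filter on low counts and with a replicate block, and Kcnd2 with upper-quartile factors. Of the other genes in these subfamilies, Kcna3 passed without control 3. Kcnb2 passed with a replicate block and without Gls1_CamkIIaCre 3. Kcna3 and Kcnb2 were chosen after their values were seen.

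The silent subunits, which modify Kcnb channels, had 9 tested genes, with 2 called higher and 1 lower. Kcng1 had 28.1, 27.7 and 28.3 CPM in the controls and 34.4, 35.0 and 32.4 CPM in the mutants. Every mutant lay above every control, by a log2 fold change of 0.28 ± 0.064 (SE, edgeR adjusted p = 0.0101). Kcng3, a rarer gene, had 7.15, 9.33 and 9.96 CPM against 12.4, 12.9 and 10.6 CPM (0.44 ± 0.126 SE, edgeR adjusted p = 0.0340). Kcns2 fell from 40.7, 48.5 and 45.7 to 35.6, 40.6 and 36.7 CPM (-0.26 ± 0.069 SE, edgeR adjusted p = 0.0268), and its lowest control and highest mutant almost met. Kcnf1 (185 ± 7.07 against 200 ± 16.5 CPM) and Kcnv1 (183 ± 12.01 against 176 ± 9.26 CPM) did not pass, though Kcnf1 did without Gls1_CamkIIaCre 3. These 3 calls depended on single libraries: without Gls1_CamkIIaCre 2, Kcng1 had an edgeR adjusted p of 0.0622, Kcng3 lost its call without any of control 1 (0.169), control 2 (0.0643), Gls1_CamkIIaCre 1 (0.107) and Gls1_CamkIIaCre 2 (0.165), and Kcns2 without any of control 2 (0.151), control 3 (0.0634), Gls1_CamkIIaCre 1 (0.116) and Gls1_CamkIIaCre 3 (0.0782). DESeq2 called neither Kcng3 (0.0698) nor Kcns2 (0.0549).

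The ether-à-go-go genes (Kcnh), voltage-gated channels with slow or subthreshold gating, rose as 3 of 8 tested genes, with none called lower and a median log2 fold change of 0.19. Kcnh7 encodes a channel of the ERG type, and its gene covers chr2:62693410-63184287 (GRCm38.p6, minus strand). It had 87.4, 91.9 and 103 CPM in the controls and 132, 124 and 134 CPM in the mutants, a log2 fold change of 0.47 ± 0.054 (SE, edgeR adjusted p = 5.33e-05). Kcnh5, of the EAG type, covers chr12:74897217-75177332 (minus strand) and went from 20.8, 20.3 and 23.1 to 30.4, 27.6 and 31.7 CPM (0.48 ± 0.076 SE, edgeR adjusted p = 7.93e-04). The gap between the groups was wide for both genes. Kcnh3, an ELK-type channel of forebrain neurons and the most abundant of the subfamily, moved less, from 151, 144 and 145 to 157, 171 and 160 CPM (0.16 ± 0.043 SE, edgeR adjusted p = 0.0314). Kcnh4, its ELK-type relative, chosen after its values were seen, had 14.03 ± 0.637 against 16.8 ± 0.850 CPM, with all mutants above all controls, and missed the threshold (0.26 ± 0.089 SE, edgeR adjusted p = 0.0760). The call of Kcnh3 was lost without control 2 (edgeR adjusted p = 0.119), control 3 (0.0646) or Gls1_CamkIIaCre 2 (0.188), and on FPKM, where its log2 fold change was 0.06. Kcnh7 overlaps Gca and Kcnh3 overlaps Mcrs1; whether the authors' counting used strand is not stated in the labels, and neither Gca (21.7 against 20.2 CPM, edgeR adjusted p = 0.494) nor Mcrs1 (59.3 against 58.5 CPM, 0.870) was called. Other named members whose spans overlap another gene, and whose counts may hold its reads, are Hcn3 (Pklr), Kcnab2 (Nphp4), Kcnip1 (Kcnmb1), Kcnk2 (Pdcd5-ps), Kcns2 (Gm32970), Kcnk7 (Ehbp1l1), Kcnmb3 (Pik3ca) and Kcnrg (Trim13).

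The upstream sequences of Kcnh7 and Kcnh5 are shown as the pair of ether-à-go-go genes that rose most: the 250 bases before the annotated start, 5′ to 3′ on the gene's strand (RefSeq, GRCm38.p6, chr2:63184288-63184537 and chr12:75177333-75177582, both minus strand). Capitals mark exact matches to the GC box (GGGCGG or its complement CCGCCC) and to the cAMP response element half-site (TGACG or its complement CGTCA).
Kcnh7: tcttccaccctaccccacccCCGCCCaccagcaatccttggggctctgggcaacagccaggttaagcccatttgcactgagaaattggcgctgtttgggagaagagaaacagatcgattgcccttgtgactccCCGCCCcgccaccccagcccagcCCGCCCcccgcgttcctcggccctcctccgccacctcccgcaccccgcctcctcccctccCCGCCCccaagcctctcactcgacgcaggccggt
Kcnh5: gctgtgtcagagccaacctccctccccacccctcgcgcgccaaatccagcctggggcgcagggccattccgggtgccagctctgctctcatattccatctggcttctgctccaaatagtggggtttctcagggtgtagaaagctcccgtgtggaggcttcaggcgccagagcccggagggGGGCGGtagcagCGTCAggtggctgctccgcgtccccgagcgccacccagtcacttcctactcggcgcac
The Kcnh7 window held 4 GC boxes and the Kcnh5 window 1, with 1 cAMP response element half-site. Each held 16 CpG dinucleotides, beside a median of 6 over all 32841 RefSeq windows of this length. A GC box stood in 32.7% of all windows and in 44 of 96 windows (45.8%) of 71 members, and a cAMP response element half-site in 17.8% and 15.6%. A match is a description of the letters and no evidence of binding.

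The Kcnq genes carry the M-current, which dampens repetitive firing. Of 5 tested genes none was called by edgeR, DESeq2 or limma voom, and 2 had an unadjusted edgeR p under 0.05. Kcnq3, an M-current subunit chosen after its values were seen, had 261 ± 15.5 against 288 ± 13.7 CPM, with all mutants above all controls. It missed the threshold (0.14 ± 0.046 SE, edgeR adjusted p = 0.0584). It passed without control 3 (0.0321), with no filter on low counts and with a replicate block.

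Among channels opened by calcium, Kcnma1, the large-conductance pore subunit that speeds repolarisation, rose from 397, 416 and 437 to 462, 467 and 466 CPM (a log2 fold change of 0.16 ± 0.040 SE, with an edgeR adjusted p of 0.0169). The 3 mutants lay close together and above every control. Kcnn3, a small-conductance channel of the afterhyperpolarisation, had 21.6, 24.9 and 23.1 CPM in the controls and 29.3, 30.0 and 24.8 CPM in the mutants (0.27 ± 0.081 SE, edgeR adjusted p = 0.0442). It was called although Gls1_CamkIIaCre 3 lay just below control 2. Kcnn2, the most abundant gene of that subfamily, stood at 35.6 ± 1.33 and 36.2 ± 0.191 CPM. Kcnt1, a sodium-activated channel, had 144 ± 3.49 against 138 ± 3.84 CPM (SD, n = 3 per group), Kcnu1, a relative of Kcnma1 known from sperm, 3.61 ± 0.621 against 3.67 ± 0.270 CPM, and Kcnmb4, the neuronal β subunit of Kcnma1, 60.02 ± 1.28 against 63.6 ± 0.459 CPM, and none of these 4 passed. Kcnt2, the other sodium-activated channel gene, chosen after its values were seen, had 45.02 to 59.8 CPM in the controls and 62.7 to 68.5 CPM in the mutants. All mutants lay above all controls, and the gene missed the threshold by edgeR (0.27 ± 0.094 SE, adjusted p = 0.122). It passed by DESeq2 (adjusted p = 0.0414), without control 3 (0.0171) and with a replicate block. Its share of the summed Kcnt FPKM was 27.6 ± 3.03% in the controls and 34.4 ± 0.539% in the mutants. The rise of Kcnma1 was not called without control 1 (edgeR adjusted p = 0.0981), control 2 (0.0658) or Gls1_CamkIIaCre 2 (0.0891), on FPKM, or after GC content and transcript length were corrected for (log2 fold change 0.09, 0.215). That of Kcnn3 was not called by DESeq2 (0.106) or limma voom (0.0736), nor without control 1 (0.173), control 3 (0.0866), Gls1_CamkIIaCre 1 (0.153) or Gls1_CamkIIaCre 2 (0.21).

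The inward rectifiers (Kcnj) had 13 tested genes, with 2 called higher and 1 lower. Both higher genes encode subunits of the G-protein-gated channels that inhibitory receptors open. Kcnj9 rose from 161, 160 and 157 to 185, 188 and 203 CPM (a log2 fold change of 0.27 ± 0.043 SE, with an edgeR adjusted p of 8.44e-04). Kcnj3, the partner subunit, rose from 214, 202 and 197 to 228, 227 and 226 CPM (0.15 ± 0.040 SE, with an edgeR adjusted p of 0.0249), with all mutants above all controls for both genes. Kcnj6, a further subunit of this channel and chosen after its values were seen, had 34.3 ± 3.78 against 40.4 ± 4.15 CPM, which overlap (0.24 ± 0.084 SE, edgeR adjusted p = 0.0984). It passed with a replicate block, without control 3 and without Gls1_CamkIIaCre 1. Summed over Kcnj3, Kcnj5, Kcnj6 and Kcnj9, these subunits reached 54.7 ± 1.31 FPKM in the controls and 62.8 ± 1.85 FPKM in the mutants (SD, n = 3 per group). Kcnj9 made up 55.6% and 56.8% of that sum and Kcnj3 39.1% and 38.0%, so the mix of subunits moved by less than 2 percentage points. The call of Kcnj3 was lost without control 2 (edgeR adjusted p = 0.0937), control 3 (0.0757), Gls1_CamkIIaCre 1 (0.0784) or Gls1_CamkIIaCre 2 (0.0945).

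Kcnj10 encodes the rectifier through which astrocytes and oligodendrocytes take up potassium released by firing neurons. It was the most abundant inward rectifier and fell from 256, 245 and 255 to 210, 201 and 191 CPM (a log2 fold change of -0.33 ± 0.042 SE, with an edgeR adjusted p of 1.2e-04). Every mutant lay below every control. Kcnj16, which joins Kcnj10 in glia and was chosen after its values were seen, overlapped between groups at 33.3 ± 2.59 and 34.3 ± 1.51 CPM (0.04 ± 0.068 SE, edgeR adjusted p = 0.775). Of 13 astrocyte markers 4 were called lower (Gja1, Gjb6, Aldoc and S100b), and 10 of 13 had a log2 fold change below 0. All mutants lay below all controls for 6 of them (46.2%, beside 13.6% of all genes). Their summed level, set mostly by the abundant markers, was 5794 to 6126 CPM in the controls and 5681 to 5856 CPM in the mutants, ranges that overlap. With each marker taken relative to its own mean over the 6 libraries, the list averaged 1.05, 1.04 and 1.06 in controls, and mutants stood lower without overlap, at 0.970, 0.940 and 0.942. Of 13 oligodendrocyte markers 7 were called lower, and 13 of 13 had a log2 fold change below 0. All mutants lay below all controls for 6 of them (46.2%). Their sums overlapped, at 3593 to 4258 CPM in the controls and 3252 to 3710 CPM in the mutants. Relative to their own means, they averaged 1.00, 1.18 and 1.11 in controls and 0.879, 0.868 and 0.970 in mutants, without overlap. No marker of either list was at 0. The part of either cell type in the fall of Kcnj10 was not tested. As a share of the summed FPKM of all Kcnj genes, Kcnj10 went from 25.9 ± 0.659% to 20.7 ± 1.18%, and Kcnj9 from 22.2 ± 0.255% to 26.4 ± 1.34%, so that Kcnj9 took the place of Kcnj10 as the most abundant inward rectifier in all 3 mutants.

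Kcnj9 and Kcnj10, which moved in opposite directions, are neighbours on chromosome 1 and are transcribed away from each other. Kcnj9 covers chr1:172320508-172329322 on the minus strand and Kcnj10 chr1:172341210-172374085 on the plus strand (GRCm38.p6), with 11887 bases and no other RefSeq gene between their starts. Their upstream windows are shown because the genes share this interval. Both are from RefSeq (chr1:172329323-172329572, minus strand, and chr1:172340960-172341209, plus strand), with capitals for exact matches to the GC box, the TATA box (TATAAA or its complement TTTATA) and the MEF2 core (a site with a palindromic consensus, read on both strands).
Kcnj9: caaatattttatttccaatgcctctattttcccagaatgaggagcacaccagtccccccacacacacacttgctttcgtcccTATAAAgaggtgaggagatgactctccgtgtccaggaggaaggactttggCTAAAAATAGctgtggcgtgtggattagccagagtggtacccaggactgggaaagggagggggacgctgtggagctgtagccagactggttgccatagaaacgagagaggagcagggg
Kcnj10: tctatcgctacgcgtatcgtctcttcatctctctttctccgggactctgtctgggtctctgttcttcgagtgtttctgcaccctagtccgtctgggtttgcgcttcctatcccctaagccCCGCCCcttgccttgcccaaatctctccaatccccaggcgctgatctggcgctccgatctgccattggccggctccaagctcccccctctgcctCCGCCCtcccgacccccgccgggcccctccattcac
The Kcnj9 window held 1 TATA box and 1 MEF2 core, no GC box and 5 CpG dinucleotides. The Kcnj10 window held 2 GC boxes, neither of the other motifs and 17 CpG dinucleotides. A TATA box stood in 12.4% of all windows of this length and a MEF2 core in 3.2%, beside 3.12% and 2.08% of the members' windows.

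**Figure D3:**
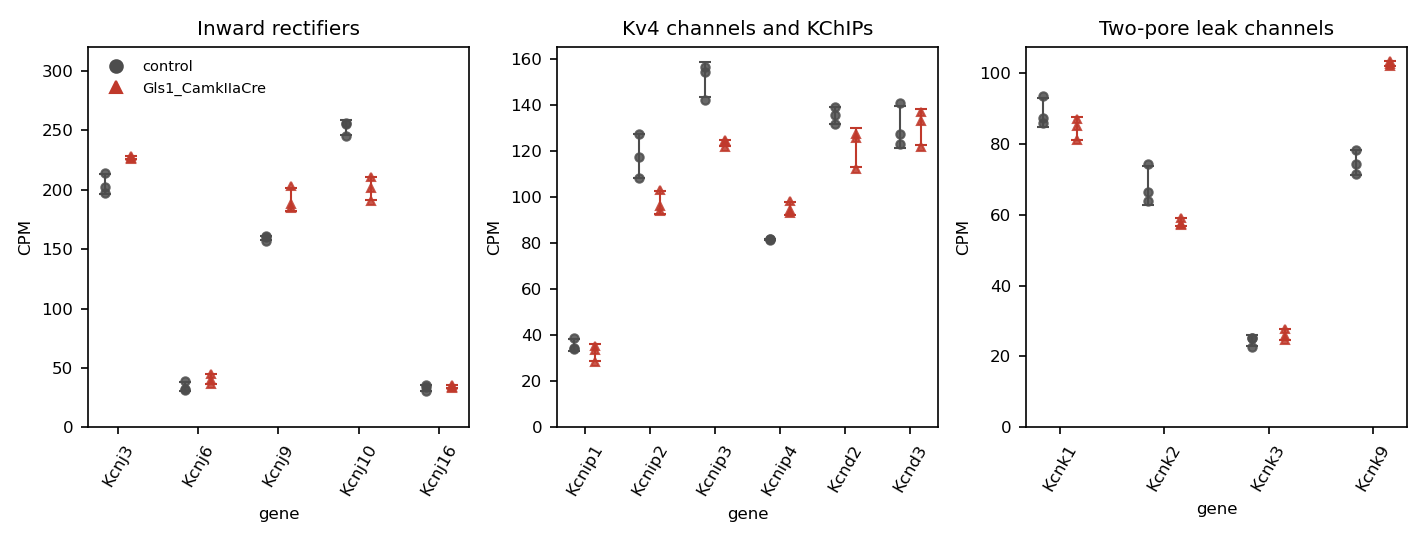
CPM (y axis, from 0) of inward rectifiers, of A-type channel genes with their KChIP partners, and of leak channels, with each library as a point (grey circles controls, red triangles mutants) and bars for the mean ± SD, n = 3 per group. Kcnj3, Kcnj9, Kcnip4 and Kcnk9 lie higher in every mutant than in any control. Kcnj10, Kcnd2, Kcnip2, Kcnip3 and Kcnk2 lie lower in every mutant than in any control.

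The leak channels (Kcnk), which set the resting potential, had 11 tested genes, 1 called higher and 1 lower. Kcnk9, an acid-sensitive leak channel (chr15:72501873-72548614, GRCm38.p6), had the smallest p of all members. It rose from 78.3, 71.4 and 74.3 to 103, 102 and 102 CPM (a log2 fold change of 0.46 ± 0.047 SE, with an edgeR adjusted p of 5.56e-06), and the mutants lay close together, far above the controls. Its close relative Kcnk3, chosen after its values were seen, overlapped at 24.5 ± 1.46 and 26.1 ± 1.57 CPM (0.09 ± 0.074 SE, edgeR adjusted p = 0.519). Kcnk2, a leak channel opened by stretch and fatty acids, fell from 66.4, 74.4 and 63.8 to 59.1, 56.9 and 57.4 CPM (-0.24 ± 0.057 SE, edgeR adjusted p = 0.0128). Kcnk1, the most abundant leak channel gene, stood at 88.8 ± 4.10 and 84.3 ± 3.13 CPM (edgeR adjusted p = 0.40). Within the summed FPKM of the Kcnk genes, the share of Kcnk9 went from 12.3 ± 0.737% to 16.3 ± 0.158%, and that of Kcnk2 from 15.9 ± 1.24% to 13.1 ± 0.260%, which put Kcnk9 above Kcnk2 in every mutant and below it in every control. Kcnk2 was not called without control 2 (log2 fold change -0.17, edgeR adjusted p = 0.0986) or Gls1_CamkIIaCre 2 (0.0770).

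None of the 4 HCN genes was called by edgeR, DESeq2 or limma voom, and 1 had an unadjusted edgeR p under 0.05. Hcn2, the most abundant of them, had 130, 121 and 126 CPM in the controls and 111, 118 and 117 CPM in the mutants, all mutants below all controls (a log2 fold change of -0.12 ± 0.045 SE, with an edgeR adjusted p of 0.103). It passed on the FPKM values (limma on log2(FPKM + 1), adjusted p = 0.0460). Hcn3 (16.7 ± 0.605 against 16.8 ± 2.65 CPM) and Hcn4 (5.48 ± 0.814 against 5.96 ± 1.58 CPM) overlapped between groups. The summed FPKM of the 4 genes was 67.5 ± 2.32 in the controls and 61.5 ± 1.46 in the mutants, of which Hcn2 made up 75.1 ± 1.32% and 72.0 ± 1.14%. FPKM summed over all genes was also lower in the mutants (238924 to 243144, against 249602 to 252272 in the controls). Neither the Hcn2 result on FPKM nor this sum was corrected for that.

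Most change among the auxiliary proteins lay in the KChIPs (Kcnip), calcium-binding partners that modify the surface level and inactivation of Kcnd channels: 1 of 4 tested genes rose and 2 fell. Kcnip4 rose from 81.2, 81.7 and 81.5 to 93.0, 94.1 and 98.3 CPM (a log2 fold change of 0.22 ± 0.045 SE, with an edgeR adjusted p of 0.00437). Kcnip3, also known as DREAM, a calcium-dependent repressor of transcription, fell from 154, 142 and 156 to 122, 124 and 124 CPM (-0.29 ± 0.044 SE, edgeR adjusted p = 6.33e-04). Kcnip2 fell from 117, 127 and 108 to 96.0, 93.8 and 103 CPM (-0.27 ± 0.055 SE, edgeR adjusted p = 0.0055). In all 3 genes the groups did not overlap. Kcnip1, chosen after its values were seen, stood at 35.7 ± 2.54 and 32.5 ± 3.61 CPM and was not called (-0.14 ± 0.077 SE, edgeR adjusted p = 0.311). The summed FPKM of the KChIPs, not corrected for the lower FPKM totals of the mutants, went from 63.0 ± 1.98 to 55.0 ± 1.19. The share of Kcnip4 in it went from 18.6 ± 0.839% to 25.2 ± 0.320% (SD, n = 3 per group). Kcnip2 went from 46.9 ± 2.99% to 42.2 ± 1.53% of that sum and Kcnip3 from 23.2 ± 1.56% to 21.03 ± 0.405%. Kcnip4 thus stood below Kcnip3 in every control and above it in every mutant. Without Gls1_CamkIIaCre 2, Kcnip2 had an edgeR adjusted p of 0.0555.

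Kcnab1, a β subunit that adds fast inactivation to Kcna channels, showed the largest fall among called members, from 108, 135 and 120 to 82.8, 81.1 and 94.6 CPM (a log2 fold change of -0.49 ± 0.088 SE, with an edgeR adjusted p of 0.0133). Its controls spread widely, yet every mutant lay below them. Kcnab2 was level at 430 ± 14.9 and 437 ± 21.6 CPM (edgeR adjusted p = 0.79). The Kcnab1 call was lost without control 3 (edgeR adjusted p = 0.0765), Gls1_CamkIIaCre 1 (0.0543) or Gls1_CamkIIaCre 2 (0.0541). None of 3 tested Kcnmb genes and none of 2 Kcne genes had an unadjusted p under 0.05 or was called by any of these tools, Kcne1l, the most abundant Kcne gene, standing at 3.74 ± 0.116 and 3.72 ± 0.561 CPM. Kcnrg, which is at or under 1 CPM in both groups, was not called.

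Among the controls, the striatal markers were highest in control 2. Kcnab1, Kcnip2, Kcnk2 and Kcns2, 4 of the 6 lower members, were also highest there, where the striatal markers sum to 1869 CPM, against 1211 in control 1 and 1364 in control 3. So were 2 of the 11 higher members, Kcnip4 and Kcnn3, while Kcnip3 and Kcnj10 were lowest in control 2. Between controls 1 and 3, Kcnip2 and Kcnk2 had the opposite order to the striatal list. Without control 2, the log2 fold change went from -0.49 to -0.41 for Kcnab1 and from -0.27 to -0.21 for Kcnip2, which stayed called. It went from -0.24 to -0.17 for Kcnk2 and from -0.26 to -0.20 for Kcns2, which did not, though each also lost its call without other libraries. Kcnip3 (-0.33) and Kcnj10 (-0.35) stayed called. The part of striatal RNA in these falls was not tested. Of 11 interneuron markers 4 were called lower, at 1675 to 1740 CPM in the controls and 1421 to 1616 in the mutants, and of 11 excitatory markers 2 were called higher. Meningeal (8 of 10), microglial (5 of 12), oligodendrocyte precursor (3 of 9) and vascular (5 of 14, with 1 higher) markers were called lower as well, and no choroid plexus marker of 6 was called. Their part in the members' changes was not tested either.

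**Figure D4:**
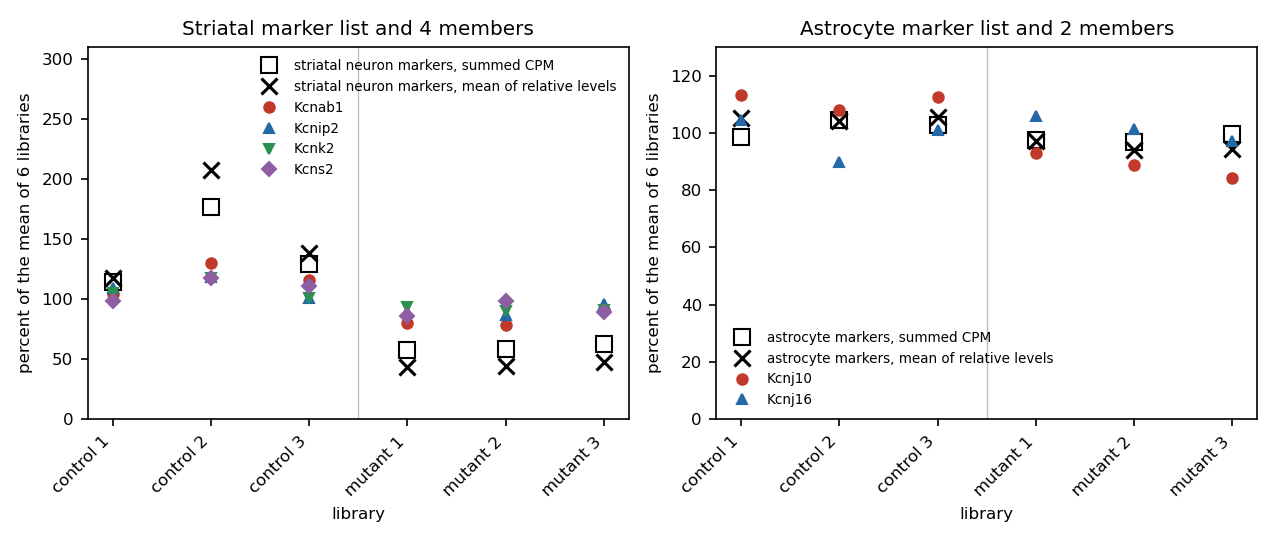
Level in each library (x axis) as percent of the mean of the 6 libraries, for the summed CPM of striatal markers (open squares) and the mean of their relative levels (crosses) with Kcnab1, Kcnip2, Kcnk2 and Kcns2 on the left, and the same of astrocyte markers with Kcnj10 and Kcnj16 on the right. The 4 members on the left are highest in control 2, as is the striatal list; on the right the crosses and Kcnj10 are lower in all 3 mutants than in any control, while the astrocyte sums and Kcnj16 overlap between groups.

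Proteins that assemble with these channels were described from a list of 19 partner genes, of which 17 were tested. By edgeR 2 were called higher and 1 lower (17.6%, beside 8.24% of all genes), with a median log2 fold change of 0.02. Dpp10, an auxiliary subunit of Kcnd channels, rose from 281 ± 6.12 to 310 ± 6.62 CPM (0.14 ± 0.038 SE, with an edgeR adjusted p of 0.0250). Cntnap2 and Cntn2, which cluster Kcna channels beside the nodes of Ranvier, moved in opposite directions. Cntnap2 rose from 114 ± 5.92 to 132 ± 2.05 CPM (0.22 ± 0.045 SE, with an edgeR adjusted p of 0.00491), and Cntn2 fell from 148 ± 10.8 to 130 ± 5.91 CPM (-0.19 ± 0.051 SE, edgeR adjusted p = 0.0287). Dpp10 was not called without control 2 (edgeR adjusted p = 0.113), Gls1_CamkIIaCre 1 (0.1003) or Gls1_CamkIIaCre 2 (0.0639), nor after the length and GC correction (0.479). On FPKM none of these 3 genes was called. Cntn2 was also not called without any of control 2 (0.108), control 3 (0.109), Gls1_CamkIIaCre 1 (0.127) and Gls1_CamkIIaCre 2 (0.124).

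Of the potassium pumps and cation-chloride cotransporters, which restore the gradients, 11 genes were tested. By edgeR 1 was higher and 2 were lower, or 27.3% of this short list, where 8.24% of all tested genes were called. The median of the 11 log2 fold changes was -0.02. Atp1b3, a β subunit, fell from 127 ± 2.34 to 116 ± 1.91 CPM (-0.13 ± 0.042 SE, edgeR adjusted p = 0.0499) and lost its call in 14 of 17 other settings, among them the removal of any 1 library (0.0634 to 0.167).

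Across 17 other settings of the analysis, each with its threshold kept, 7 members were called every time. The same count was not made over all genes, so no background share stands beside it. The 7 members are Kcnk9, Kcnh7, Kcnh5, Kcnj9, Kcnip4, Kcnip3 and Kcnj10. Their log2 fold changes ranged over these settings from 0.38 to 0.49 for Kcnk9, from 0.39 to 0.54 for Kcnh7 and from 0.42 to 0.54 for Kcnh5. For Kcnj9 they ranged from 0.22 to 0.30, for Kcnip4 from 0.20 to 0.28, for Kcnip3 from -0.33 to -0.25 and for Kcnj10 from -0.36 to -0.29. The other 10 called members kept their direction throughout and lost the call in 1 setting (Kcnip2) to 11 settings (Kcnn3). On FPKM, Kcng1, Kcng3, Kcnh3, Kcnj3, Kcnma1, Kcnn3 and Kcns2 were not called with either pseudocount, and Kcnk2 was not with a pseudocount of 1. Kcnh3 and Kcnn3 were not called with upper-quartile factors, nor Kcng3 and Kcnn3 by limma voom or in the non-robust edgeR fit.

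**Figure D5:**
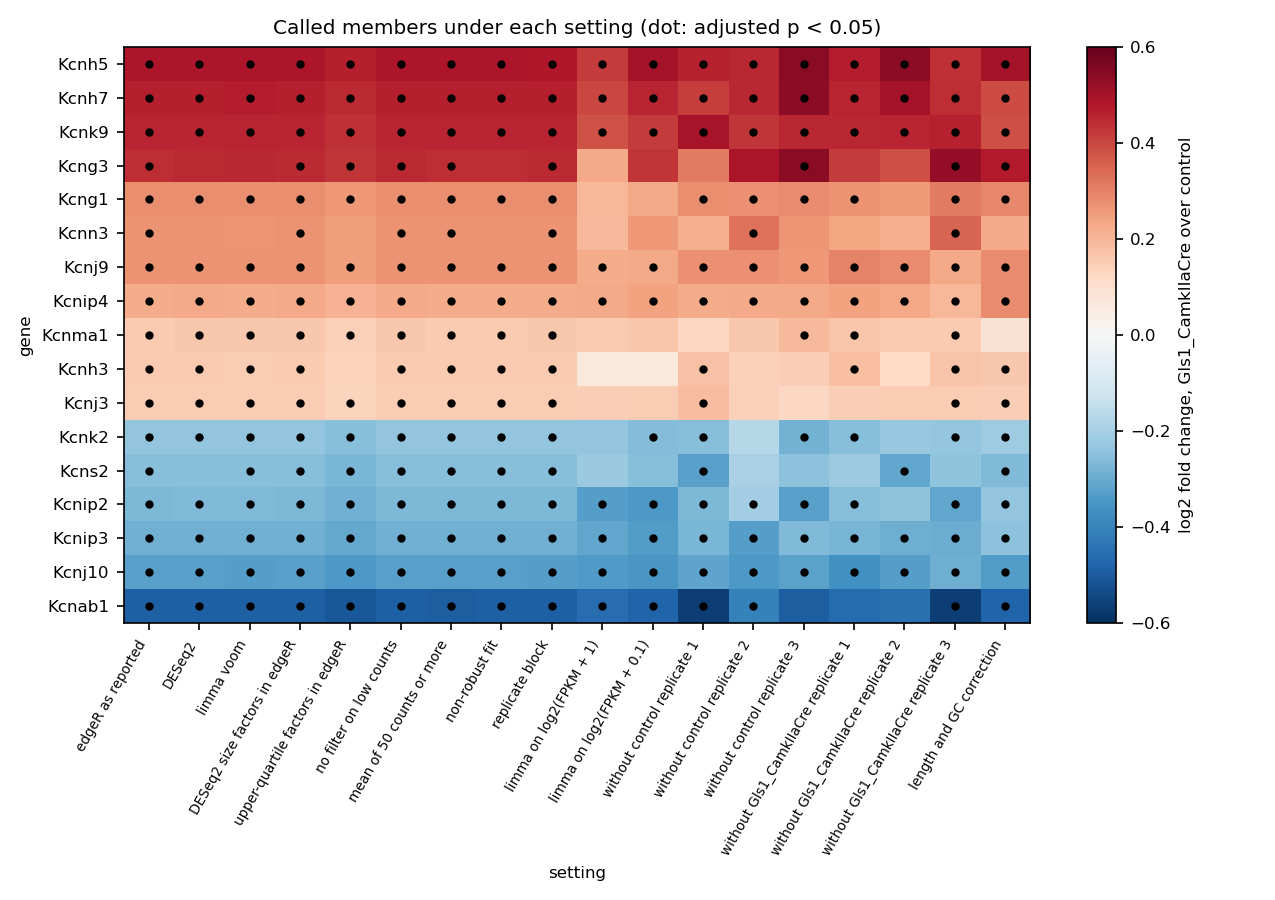
Log2 fold change (colour, Gls1_CamkIIaCre over control) of the 17 called members (rows) in the reported edgeR fit and 17 other settings (columns); a dot marks an adjusted p under 0.05. No colour changes sign within a row, and 7 rows carry a dot in every column.

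Genomic spans of called members overlapped widely between directions, at 8815 to 1135620 bases for the 11 higher (median 152331) and 6053 to 429014 bases for the 6 lower (median 49236.5), beside a median of 36623.5 for the members not called. Across the 85 tested members, Spearman's correlation of the log2 fold change with the span was 0.26, and with the length of the longest transcript 0.15, beside 0.26 over 14337 genes for the latter. Genes measured in the same libraries are not independent replicates, and these correlations are a description across genes. With GC content and transcript length corrected for, 15 of the 17 members stayed called, and Kcnma1 and Kcnn3 did not.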

How the data were processed

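Raw read counts, as whole numbers, and FPKM values of 21878 genes were deposited in separate tables by the authors. Per the submitters' processing notes, reads were placed on GRCm38 (mm10). For the aligner, the counter, the strand setting and the FPKM tool, names were not given in the sources used here. Per the labels' protocols, total RNA came from TRIzol extraction and a SMARTer mRNA-Seq kit made the libraries.

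Mutants were compared with controls on the counts by edgeR 4.0.16 under R 4.3.3 (filterByExpr, TMM factors, robust quasi-likelihood fit, no covariate), with Benjamini-Hochberg adjustment over 14440 genes and a threshold of 0.05. The common biological coefficient of variation was 4.75%. No library was a duplicate of another. The fit was run on counts simulated from its own dispersions and the observed mean levels. Such counts cannot show how well its model holds for these libraries. Order of levels and shares used FPKM. Alternatives were DESeq2 1.42.0, limma 3.58.1 (voom, or log2 of FPKM plus 1 or 0.1), other scaling factors and filters, a mean of 50 counts or more, a non-robust fit, a replicate block, thresholds of 0.01 and 0.1, and each library left out. A correction for GC content and transcript length (longest GENCODE M21 transcript, smooth terms of 4 degrees of freedom, 99.3% of tested genes matched) was chosen after seeing the data. Coordinates and upstream sequences come from RefSeq GRCm38.p6, which had a window for 13 of the 17 called members.

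The members and lists were chosen with earlier results of these data known. Named genes are Kcnk9, Kcnh7, Kcnj10, every called member, the Hcn genes, the member of highest control FPKM in each subfamily, and every called gene of the partner and pump lists. Members at or under 1 CPM in both groups were only counted, and other names are marked where they appear. Not every gene under this rule is reported here.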

Additional observations from a re-analysis of the deposited data

How the results depend on the processing

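Called members kept their direction in every alternative. On FPKM (pseudocounts 1 and 0.1) 10 and 11 members were called (5 higher under both), 674 and 729 genes in all (116 and 122 higher), and 0 partner genes in either direction. The deposited FPKM sum to 238924 to 243144 in the mutants and 249602 to 252272 in the controls, and the cause of the lower counts was not tested. At an adjusted p under 0.01, 8 members (5 higher, 3 lower), 402 genes (194 and 208) and 1 higher and 0 lower partner genes passed, and under 0.1, 1862 genes (898 and 964) and 3 higher pumps. With upper-quartile factors 9 members were higher and 7 lower, and 429 and 749 of all genes. After the length and GC correction 359 genes were lower and 1 partner gene higher. The lower pumps numbered 1 by DESeq2, limma voom, DESeq2 size factors, no filter, the non-robust fit, FPKM, the length and GC correction and the 0.01 threshold. Leaving out 1 library gave 415 to 1098 called genes (197 to 556 higher, 218 to 542 lower), 8 to 18 members (5 to 13 higher, 3 to 6 lower), 1 to 3 higher and 0 to 1 lower partner genes, and 1 to 2 lower pumps.

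Genes that were not called changed sign as follows, in log2 fold change and with the cause not tested. By limma voom Hcn3 was at -0.0077, and with upper-quartile factors at -0.011. On FPKM (pseudocounts 1 and 0.1) Hcn3 was at -0.095 and -0.11, Hcn4 at -0.0079 and -0.021, Kcnab2 at -0.061 and -0.062, Kcnc1 at -0.016 and -0.016, Kcnn2 at -0.041 and -0.045, and Kcnu1 at -0.11 and -0.30. After the length and GC correction Kcnc1 was at -0.024 and Kcne1l at 0.068. With 1 library left out the ranges were -0.061 to 0.13 for Hcn3, -0.028 to 0.32 for Hcn4, -0.016 to 0.054 for Kcnab2, -0.0069 to 0.034 for Kcnc1, -0.13 to 0.075 for Kcne1l, -0.017 to 0.089 for Kcnj16, -0.0025 to 0.046 for Kcnn2 and -0.088 to 0.16 for Kcnu1.

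Same-numbered libraries correlated at 0.15, -0.042 and 0.18 in their deviations from the group means, and differently numbered ones at -0.21 to 0.075. These values do not settle whether a replicate number marks a pair of samples. With the replicate block 23 members were called (16 higher, 7 lower), with 17 of 17 kept, 863 genes were higher in all, and 2 partner genes were lower and 3 pumps higher. Genes of a few CPM, such as Kcnu1 and Kcne1l, have SEs near 0.18, so that differences of that size were not detectable at this depth. Differences of a few SEs could be missed too, as Kcna2 (0.14 ± 0.044 SE) was not called.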
